A study of Saccharomyces cerevisiae with 4 samples.

Results

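The genes described here make and regulate ergosterol, the main sterol of yeast membranes. They were chosen by name, from the mevalonate enzymes to the last reductase of the pathway, with the electron donors of its oxygenases, the steryl ester enzymes, 2 Insig homologs, the transcription factors of sterol genes and 2 oxysterol-binding homologs. Of 40 names, 39 had a probe set, among 5343 genes named on the array. INSIG1 matched no symbol or synonym and was not measured under that name. The arrays compare cells carrying the temperature-sensitive nps1-13 allele with WT cells, 2 Affymetrix Yeast Genome 2.0 arrays per strain, to survey expression under respiratory conditions when RSC is impaired. RSC is an essential chromatin remodeler, Nps1 (Sth1) is its ATPase, and by the methods the allele changes residues of the bromodomain at the C-terminus of Nps1. Both strains were pre-grown in glucose medium (YPD) and then kept for 4 h in YPEG, whose carbon sources are ethanol and glycerol, and the labels give 28°C for growth. By the methods, the nps1-13 strain is the diploid BYI-3, which carries the allele in both gene copies along with met15Δ0, and the WT strain is the diploid BY4743, which is heterozygous for met15Δ0 and for lys2Δ0. Both strains are homozygous for his3Δ1, leu2Δ0 and ura3Δ0. The mutant was a single strain, and neither labels nor methods tell if its replicate arrays, or those of WT, were grown apart. The p-values therefore measure only the spread between these arrays, which may be technical.

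Ergosterol synthesis begins with acetyl-CoA. The mevalonate enzymes build isoprenoid units, with HMG-CoA reductase (Hmg1 and Hmg2) as the main control point, and farnesyl diphosphate is then joined into squalene. Squalene is oxidised and cyclised to lanosterol, the first sterol, which loses methyl groups and is reshaped in the endoplasmic reticulum to ergosterol. Several of the later steps consume molecular oxygen, and some of the enzymes carry heme. In yeast the transcription factors Upc2 and Ecm22 activate sterol genes when sterol runs low, and excess sterol is stored as esters in lipid droplets.

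The deposited signals were not on 1 scale. Array medians were 2158 and 2024 in nps1-13, against 3051 and 2769.6 in WT, and on that scale the log2 fold change of the median gene was -0.41. The shift was smaller for bright genes. Signals below are therefore quantile-normalized, which gives all arrays the same distribution and moves the median gene to -0.010. Every change is relative to the other genes on the array, and each log2 fold change is nps1-13 over WT from limma, with p-values adjusted by Benjamini-Hochberg over all 5343 genes and a threshold of 0.05. As a second scaling, each array was centred on its median. With 2 arrays per strain the smallest two-sided p of an exact permutation test of 1 gene is 0.333, so every call rests on the spread pooled over genes.

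The strains differed at other loci too. MET17 (MET15) had 16.4 and 18.4 in nps1-13, against 3381 and 3575 in WT, as the homozygous deletion in BYI-3 would have it, while LEU2, listed as deleted in both strains, had 4880.5 and 4949 in nps1-13, against 12.3 and 33.7 in WT. All 4 alpha-type markers were higher in nps1-13, with MF(ALPHA)1 at 6679 and 7214 in nps1-13, against 37.4 and 40.3 in WT. Of the 6 a-type markers 3 were lower and 3 did not pass, and the a1 probe set HMRA1 had 0.6 and 8.38 in nps1-13, against 1247 and 1677 in WT. The nps1-13 arrays therefore go against the a/alpha mating type listed for BYI-3. Mating type, the marker alleles and nps1-13 cannot be told apart in these arrays. STH1 itself, whose allele is not a deletion, had 8019 and 7537 in nps1-13, against 4268 and 4045 in WT.

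Transcripts of ergosterol synthesis were lower in nps1-13, most of all in the second part of the pathway. Of the 23 enzymes, 18 passed the test as lower, 3 passed as higher and 2 failed it, whereas 37.7% of all genes were lower and 36.4% higher. Their median log2 fold change was -0.45, against -0.010 for all genes, and the arrays of the strains did not overlap for 22 of the 23 (87.5% of all genes). On the deposited scale 64.3% of all genes were lower and 9.41% higher, and with arrays centred 34.6% were lower and 42.7% higher. Since most genes passed the test, the sizes of the changes are given as well. At least 1.5-fold lower and past the test were 9 of 23 (39.1%), against 13.7% of all genes, and 5 were at least 2-fold lower (21.7%, against 4.75%). None was 1.5-fold higher, a size that 13.1% of all genes reached, or 2-fold higher (4.64%). The enzyme genes had mean WT signals of 2371 to 15119, and among the 1781 brightest genes 8.65% were 1.5-fold lower and 2.02% were 2-fold lower. Of the 20 sterol genes among these, 6 were 1.5-fold lower and 3 were 2-fold lower. With the arrays centred, 13 of the 23 enzymes were lower and 3 higher, their median was -0.39, and 3 rather than 5 enzymes were 2-fold lower. All 13 enzymes lower after centring were lower as deposited too. The deposited fold changes are the centred ones shifted by -0.48, so this is no separate check.

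**Figure D1:**
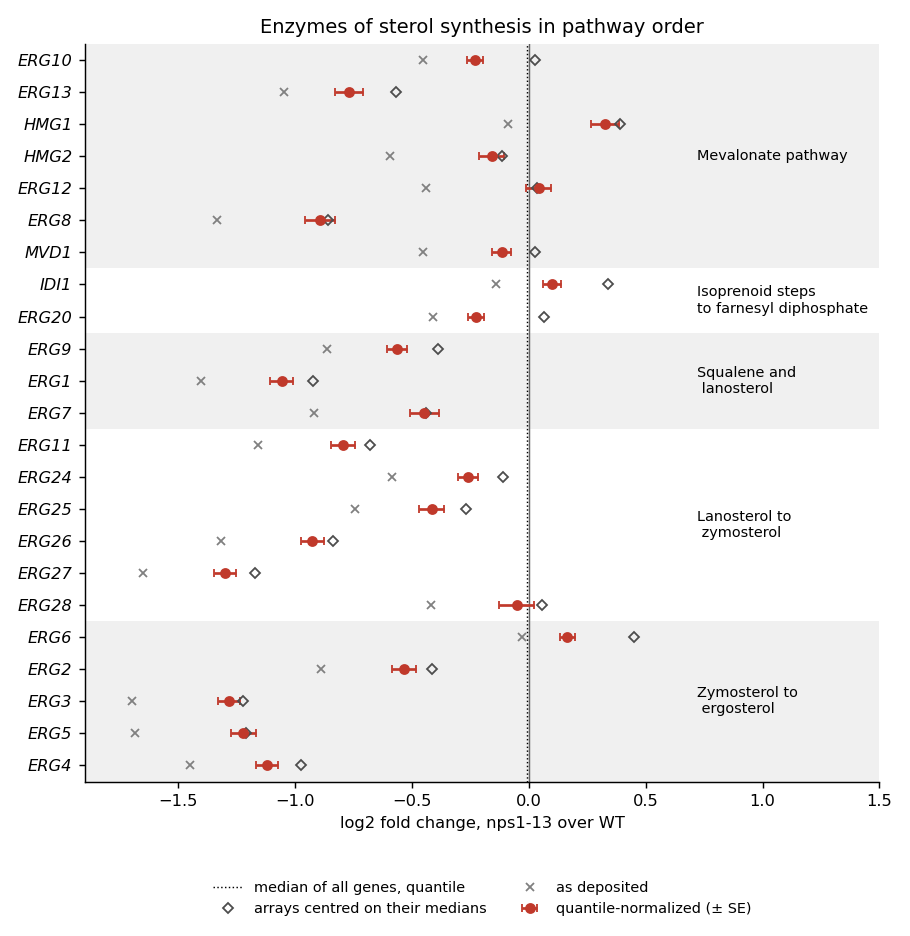
Log2 fold change (nps1-13 over WT) of the 23 enzymes in pathway order, from top to bottom. Filled circles with bars give the quantile-normalized value ± SE (2 arrays per strain), diamonds the value with arrays centred on their medians and crosses the value as deposited. ERG27, ERG3, ERG5, ERG4 and ERG1 lie below -1 by quantile normalization, while HMG1, ERG12, IDI1 and ERG6 lie above 0.

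In the mevalonate pathway the change was split between genes. ERG8, which encodes phosphomevalonate kinase (YMR220W), had signals of 2062 and 2189.8 on the nps1-13 arrays, against 3766 and 4142 on the WT arrays. It was 1.86-fold lower in nps1-13, a log2 fold change of -0.89 (SE 0.062, adjusted p = 2.9e-06). ERG13, encoding HMG-CoA synthase (YML126C), had 5724 and 6527 in nps1-13, against 10263 and 10584 in WT, and fell with a log2 fold change of -0.77 (SE 0.060, adjusted p = 5.5e-06). For both genes the mutant arrays lay well below both WT arrays, and the calls held when centred (-0.86 for ERG8 and -0.57 for ERG13). HMG1, one of 2 genes for HMG-CoA reductase, had 3575 and 3846 in nps1-13, against 3086 and 2842 in WT, and was higher (log2 fold change 0.32, adjusted p = 0.0011). Its paralog HMG2 had 2909 and 2754 in nps1-13, against 3231 and 3096 in WT, a small decrease (-0.16, adjusted p = 0.024) that did not pass when centred (-0.12), nor without nps1-13 replicate 2 (adjusted p = 0.12), without WT replicate 1 (0.16) or without WT replicate 2 (0.061). As deposited, HMG1 had 3195 and 3222 in nps1-13, against 3726 and 3122 in WT, so its rise is relative to the other genes and reads -0.088 on that scale.

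The other early genes lay near the median of all genes. ERG10, encoding acetyl-CoA acetyltransferase, and ERG20, encoding farnesyl diphosphate synthase, were lower by quantile normalization (-0.23 and -0.23), but at 0.025 and 0.064 when centred, where neither passed. MVD1, the mevalonate diphosphate decarboxylase gene (ERG19), was at -0.12 and 0.025 when centred, and lost its call without nps1-13 replicate 1 (adjusted p = 0.091), without WT replicate 1 (0.090) or without WT replicate 2 (0.16). IDI1, the isopentenyl diphosphate isomerase gene, was at 0.098 (adjusted p = 0.046) and passed as higher in 1 of the 4 sets that leave out an array, the one without WT replicate 1. The mevalonate kinase gene ERG12 had 2435 and 2444 in nps1-13, against 2403 and 2339 in WT, and did not pass (log2 fold change 0.041, adjusted p = 0.49). Over the 9 genes up to farnesyl diphosphate the median was -0.16 (0.025 when centred). By both scalings 2 of the 9 were lower, ERG8 and ERG13, as were 1653 of all 5343 genes.

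From squalene onward the decrease was broad. Of the 14 genes from ERG9 to ERG4, 12 were lower (85.7%, against 37.7% of all genes). ERG6 was higher, like 36.4% of all genes, and ERG28 did not pass. The median of the 14 was -0.68. When centred it was -0.56, with 11 lower (34.6% of all genes) and 1 higher (42.7% of all genes). ERG9 encodes squalene synthase, the first enzyme committed to sterols, and had 6276 and 6674 in nps1-13, against 9567 and 9579 in WT, a log2 fold change of -0.56 (SE 0.043, adjusted p = 4.5e-06). ERG1 encodes squalene epoxidase (YGR175C), the target of the antifungal terbinafine, and had 3831 and 4071 in nps1-13, against 7977 and 8473 in WT. It was 2.08-fold lower in the mutant (log2 fold change -1.06, SE 0.050, adjusted p = 3.4e-07), and both mutant signals lay far below both WT signals. ERG7, the lanosterol synthase gene, fell less, with -0.45 (adjusted p = 1.9e-04).

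**Figure D2:**
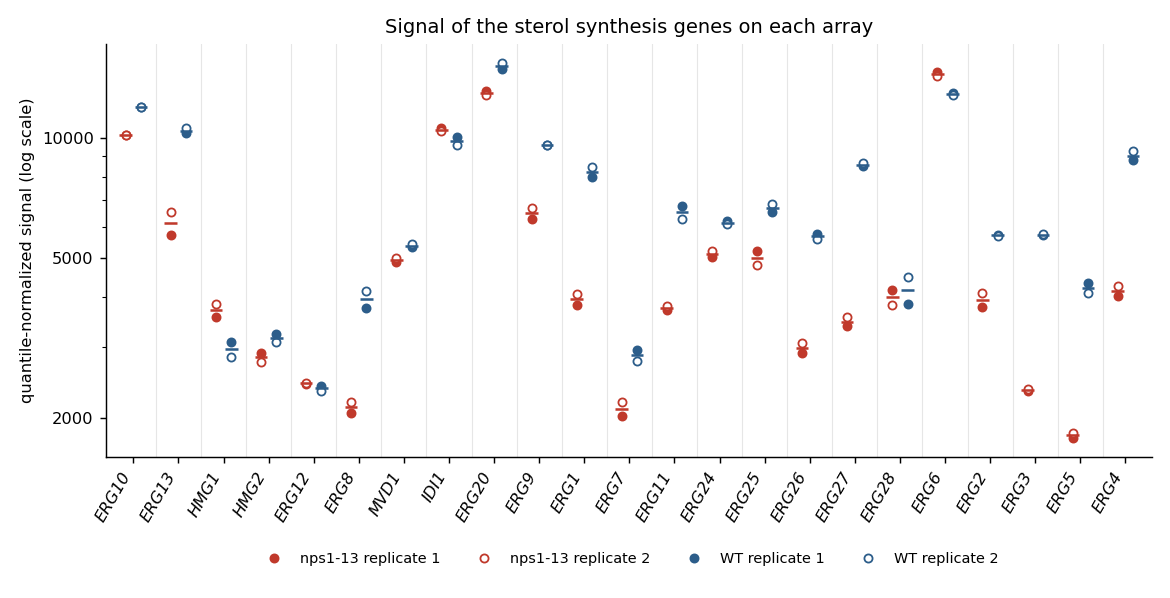
Quantile-normalized signal (log axis) of the 23 enzyme genes on each array, with nps1-13 in red on the left of each column and WT in blue on the right, replicate 1 filled, replicate 2 open and bars at the mean of 2 arrays. The replicates lie close together, and the strains overlap for ERG28 alone. Signals of different genes come from different probes and are not compared.

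Conversion of lanosterol to zymosterol removes methyl groups. ERG11, encoding the cytochrome P450 lanosterol 14-alpha-demethylase (YHR007C) that azole drugs inhibit, had 3713 and 3802 in nps1-13, against 6772 and 6276 in WT, and was 1.74-fold lower (log2 fold change -0.80, SE 0.050, adjusted p = 1.6e-06). The next reductase gene, ERG24, was at -0.26, and did not pass when centred (-0.11, adjusted p = 0.051). C-4 demethylation follows, by the methyl oxidase Erg25, the decarboxylase Erg26 and the ketoreductase Erg27, which Erg28 holds together as a scaffold. ERG27 (YLR100W) had 3387 and 3568 on the nps1-13 arrays, against 8482 and 8648 on the WT arrays. With a log2 fold change of -1.30 (SE 0.045, adjusted p = 8.4e-08), a 2.46-fold decrease, it stood at rank 120 of 5343 genes ordered from the most lowered. ERG26 had 2899.9 and 3082 in nps1-13, against 5767 and 5604 in WT (-0.93, SE 0.050, adjusted p = 6.8e-07). ERG25 fell by less (-0.42, SE 0.052, adjusted p = 9.5e-05). ERG28 had 4171 and 3837 in nps1-13, against 3839 and 4488 in WT, so that its arrays overlapped between strains, and did not pass (log2 fold change -0.053, adjusted p = 0.54). The transcripts of the 3 catalytic subunits were thus lower, by different amounts. No change in that of the scaffold was detected by quantile normalization or when centred. As deposited ERG28 was lower (-0.42, adjusted p = 7.2e-04 from limma), where 64.3% of all genes were.

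The last 5 genes held 3 of the 5 largest decreases. ERG3, encoding the C-5 sterol desaturase (YLR056W), had 2339 and 2368 on the nps1-13 arrays, against 5719.8 and 5744 on the WT arrays, a 2.44-fold decrease (log2 fold change -1.28, SE 0.046, adjusted p = 9.2e-08). ERG5, the cytochrome P450 C-22 desaturase gene (YMR015C), had 1784 and 1835 in nps1-13, against 4348 and 4094 in WT (-1.22, SE 0.054, adjusted p = 2.4e-07). ERG4, whose product makes ergosterol in the final reduction (YGL012W), had 4029 and 4264 in nps1-13, against 8802 and 9250.4 in WT (-1.12, SE 0.048, adjusted p = 1.8e-07). For each of these genes the replicates lay close together and both mutant signals were far below both WT signals. ERG2, the C-8 sterol isomerase gene, fell with -0.54 (adjusted p = 1.8e-05). ERG6, the C-24 methyltransferase gene that sits at the branch toward fungal sterols, went the other way, with 14568 and 14234 in nps1-13, against 12928 and 12761 in WT. Its log2 fold change was 0.16 (adjusted p = 0.0017), 0.45 when centred and -0.028 as deposited, where it did not pass. When centred, ERG3 was at -1.22 and ERG5 at -1.21, and both were lower as deposited (-1.70 and -1.69).

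All 5 genes for oxygen-consuming enzymes, ERG1, ERG11, ERG25, ERG3 and ERG5, were lower by quantile normalization (against 37.7% of all genes) and when centred (34.6%). They were lower as deposited too, where values are the centred ones shifted by -0.48 and 64.3% of all genes were lower. Their log2 fold changes ran from -1.28 to -0.42 with a median of -1.06. The 18 other enzymes had a median of -0.25, and 13 of them were lower (72.2%, against 37.7% of all genes). Among the late enzymes that use no oxygen, 7 of 9 were lower (77.8%, against 37.7% of all genes), with a median of -0.54. Of the 5 enzymes with a decrease of 2-fold or more, 2 were of this kind, ERG27 and ERG4. These medians are descriptions, and the difference between the groups was not tested.

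**Figure D3:**
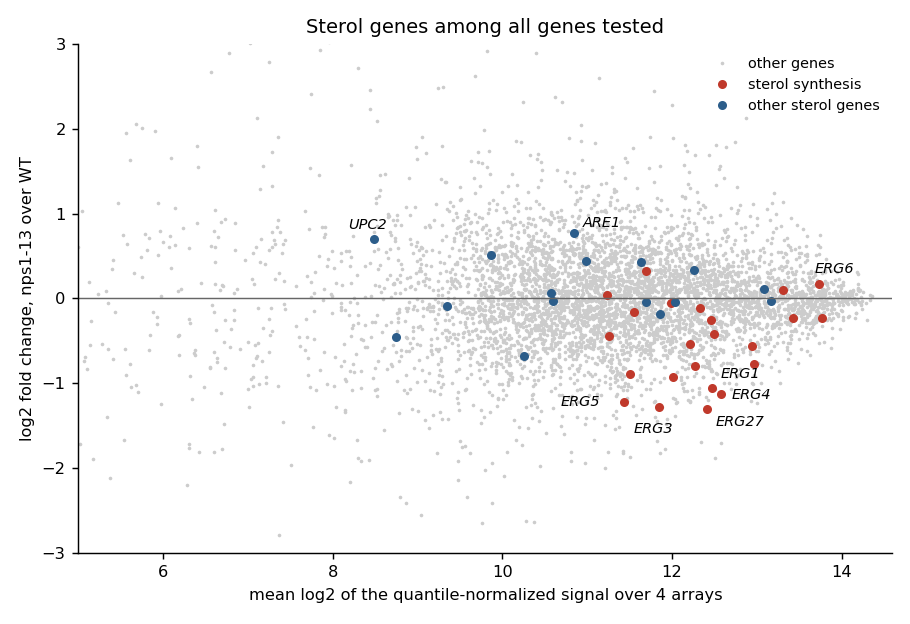
Log2 fold change (nps1-13 over WT) against the mean log2 of the quantile-normalized signal over 4 arrays, with each grey point 1 gene, the 23 enzymes of sterol synthesis in red and the 16 other sterol genes in blue. Fold changes beyond 3 or mean log2 signals under 5 lie outside the axes (89 genes), and most red points lie below 0 among the bright genes.

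The genes that serve the sterol oxygenases did not move together. CYB5 encodes cytochrome b5, an electron donor of the sterol desaturases, and had 983 and 943 in nps1-13, against 1535 and 1559 in WT. It was lower with a log2 fold change of -0.68 (SE 0.064, adjusted p = 1.7e-05). NCP1, the cytochrome P450 reductase gene, had 9229.5 and 8974 in nps1-13, against 9477 and 9167 in WT, with overlapping arrays, and did not pass (-0.034, adjusted p = 0.43), although it was higher when centred (0.18, adjusted p = 0.0075). DAP1, whose heme-binding product associates with Erg11, was higher, with 2453 and 2264 in nps1-13, against 1769.8 and 1707 in WT (log2 fold change 0.44, SE 0.062, adjusted p = 2.0e-04, and 0.40 when centred).

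Of the 4 transcription factors of sterol genes, 3 were higher relative to the other genes on the array, where 36.4% of all genes were higher, and SUT2 did not pass. UPC2, encoding a zinc cluster activator of sterol genes (YDR213W), had 495 and 419.8 on the nps1-13 arrays, against 287 and 276 on the WT arrays. It was 1.62-fold higher (log2 fold change 0.69, SE 0.11, adjusted p = 5.0e-04), with both mutant signals above both WT signals. Its paralog ECM22 had 1205 and 1025 in nps1-13, against 809 and 751 in WT (0.51, SE 0.092, adjusted p = 9.3e-04). SUT1, a zinc cluster factor that promotes sterol uptake, had 5322 and 5684 in nps1-13, against 4338 and 4397 in WT (0.33, SE 0.048, adjusted p = 2.4e-04). Neither gene's mutant signals overlapped its WT signals. SUT2, the paralog of SUT1, had 679.8 and 584 in nps1-13, against 639.7 and 703 in WT, and did not pass (-0.091, adjusted p = 0.43), but was lower when centred (-0.25, adjusted p = 0.040). The 3 increases held when centred (0.63 for UPC2, 0.34 for ECM22 and 0.48 for SUT1). As deposited, UPC2 had 396 and 327 in nps1-13, against 344 and 302 in WT, and none of the 3 passed as higher (UPC2 at 0.16, ECM22 at -0.14 and SUT1 at -0.00083). On that scale no sterol gene passed as higher, and 9.41% of all genes did. By quantile normalization 7 of the 16 sterol genes outside synthesis were higher (43.8%, against 36.4% of all genes) and 3 were lower (18.8%, against 37.7%).

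**Figure D4:**
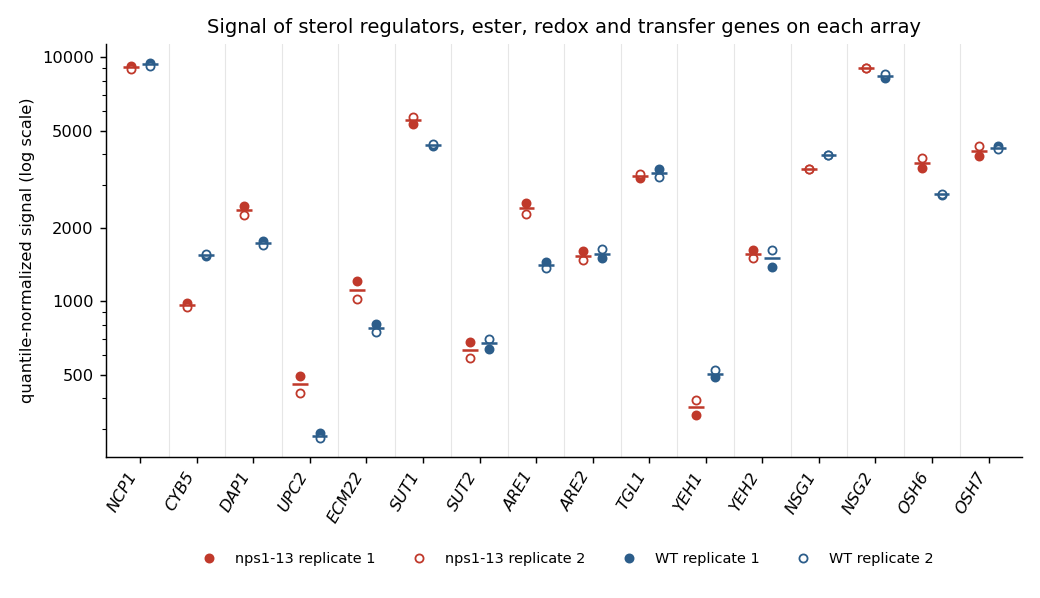
Quantile-normalized signal (log axis) of the 16 sterol genes outside synthesis on each array, with nps1-13 in red on the left of each column and WT in blue on the right, replicate 1 filled, replicate 2 open and bars at the mean of 2 arrays. UPC2, ECM22, SUT1, DAP1, ARE1 and OSH6 lie higher in nps1-13, CYB5 and YEH1 lie lower, and NCP1, SUT2, ARE2, TGL1, YEH2 and OSH7 overlap.

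Among the steryl ester genes 1 of 2 sterol acyltransferases was higher and 1 of 3 hydrolases lower (against 36.4% and 37.7% of all genes). The other 3 genes did not pass, which does not show that they were unchanged. As deposited, 4 of the 5 genes were lower, like 64.3% of all genes. ARE1 (YCR048W) had 2523 and 2272 on the nps1-13 arrays, against 1447 and 1370.3 on the WT arrays. It was 1.70-fold higher, the largest increase of the 39 genes (log2 fold change 0.77, SE 0.069, adjusted p = 1.3e-05), and was at 0.71 when centred and at 0.24 as deposited, where it did not pass (adjusted p = 0.081). ARE2, the other acyltransferase gene, had 1603 and 1469.7 in nps1-13, against 1498 and 1639 in WT, with overlapping arrays (-0.030, adjusted p = 0.72). The hydrolase gene YEH1 had 342 and 394 in nps1-13, against 488 and 522 in WT, and was lower (-0.46, adjusted p = 0.0036), a call lost without WT replicate 2 (adjusted p = 0.054). The hydrolase genes YEH2 and TGL1 did not pass (0.058 and -0.041).

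NSG1 encodes a homolog of the mammalian Insig proteins that stabilises Hmg2, and had 3482 and 3483 in nps1-13, against 3953 and 3958 in WT. It was lower by a small amount (-0.18, adjusted p = 0.0054), which did not pass when centred (-0.098). Its paralog NSG2 had 9015 and 9057 in nps1-13, against 8176 and 8506 in WT (0.12, adjusted p = 0.023), and kept its call in 1 of 4 sets with an array left out, the one without WT replicate 2. OSH6, whose product transfers lipids between membranes, had 3504 and 3849 in nps1-13, against 2736 and 2741 in WT, and was higher (0.42, SE 0.058, adjusted p = 1.7e-04), although it was at 0.00040 as deposited. OSH7 had 3940.1 and 4335 in nps1-13, against 4329 and 4183 in WT, and did not pass (-0.042).

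A total of 7 paralog pairs were compared by the difference of their log2 fold changes, in which a shift common to all genes cancels. A shift that varies with brightness does not cancel where the paralogs differ in signal. The interval of the difference, computed from the standard errors of both genes as if they were independent, left out 0 for 6 of the 7 pairs. HMG1 minus HMG2 was 0.48 (95% interval 0.30 to 0.67) and ARE1 minus ARE2 was 0.80 (95% interval 0.57 to 1.02). For OSH6 minus OSH7 it was 0.47 (95% interval 0.28 to 0.65), and for SUT1 minus SUT2 0.42 (95% interval 0.17 to 0.68). YEH1 minus YEH2 was -0.52 (95% interval -0.82 to -0.21) and NSG1 minus NSG2 was -0.30 (95% interval -0.43 to -0.16). On these arrays the fold changes between the strains thus differed between the paralogs of these 6 pairs. By quantile normalization HMG1 and HMG2 were called in opposite directions, as were NSG1 and NSG2. The lower calls of HMG2 and NSG1 did not pass when centred. For UPC2 minus ECM22 the difference was 0.18 (95% interval -0.15 to 0.52), which allows no difference as well as one of 0.52. With the arrays centred or as deposited, SUT1 minus SUT2 was 0.72, NSG1 minus NSG2 was -0.41 and UPC2 minus ECM22 was 0.30. No p-value was computed for these differences.

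**Figure D5:**
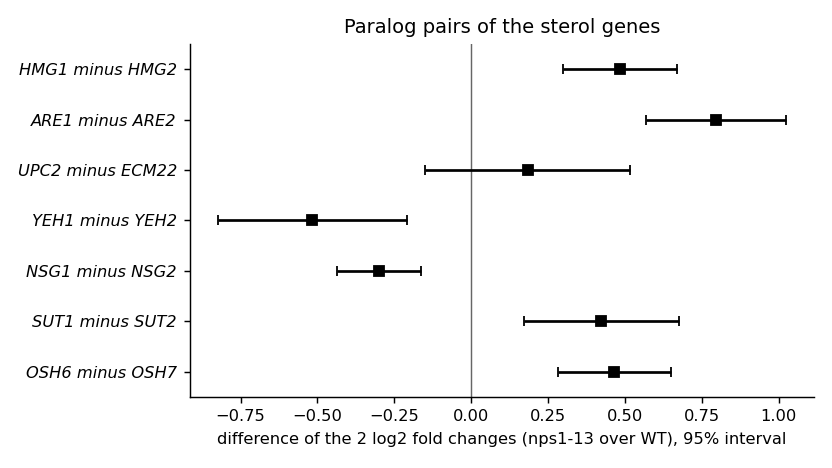
Difference of the log2 fold changes (nps1-13 over WT) of the 2 genes of each pair, with bars for the 95% interval from their standard errors (2 arrays per strain). The intervals leave out 0 except for UPC2 minus ECM22, and the largest difference is that of ARE1 minus ARE2.

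Sterol uptake and transport genes changed in both directions. Of 9 genes of sterol uptake and the anaerobic cell wall, 3 rose (33.3%, against 36.4% of all genes) and 1 fell (11.1%, against 37.7% of all genes). Their median was 0.22 by quantile normalization and -0.21 as deposited. TIR4, a cell wall mannoprotein gene of anaerobic growth, had 2309 and 2214 on the nps1-13 arrays, against 624 and 639 on the WT arrays, a 3.58-fold increase (log2 fold change 1.84, SE 0.065, adjusted p = 8.9e-08) that passed as deposited too (1.29). TIR2 and DAN4, of the same kind, were at 0.73 and 0.34 and did not pass as deposited, and DAN4 lost its call without nps1-13 replicate 1 (adjusted p = 0.075) or nps1-13 replicate 2 (0.091). AUS1, a sterol importer gene of the plasma membrane, had 353 and 329.7 in nps1-13, against 662 and 609.8 in WT (-0.90, SE 0.094, adjusted p = 3.4e-05). In the list of 16 sterol transport genes, 9 were lower (56.2%, against 37.7% of all genes) and 4 higher (25.0%, against 36.4% of all genes), with a median of -0.37. PRY3 and PRY2, for proteins of a sterol-binding family, fell with -1.14 and -0.94. NCR1, the homolog of the human Niemann-Pick protein NPC1, fell with -1.06, and the oxysterol-binding homolog gene OSH3 with -0.72. The adjusted p of these genes ran from 2.8e-07 to 3.8e-06 (limma). As deposited the 4 were lower as well, like 64.3% of all genes. These 4 were named for having the largest changes of the list, whose largest increase was 0.64.

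Of 7 regulators that link oxygen and heme to sterol and hypoxic genes, 3 fell (42.9%, against 37.7% of all genes) and 2 rose (28.6%, against 36.4% of all genes). TUP1, the corepressor gene among those that fell, named after its values were seen, was at -0.22 and did not pass when centred (-0.060, adjusted p = 0.27). ROX1, the heme-induced repressor of hypoxic genes, had 4256 and 4084 in nps1-13, against 7349 and 7207 in WT, a log2 fold change of -0.80 (SE 0.044, adjusted p = 7.1e-07), and CYC8, its corepressor with TUP1, was at -0.43. SPT23 and MGA2, membrane-bound activators of fatty acid desaturation, were higher by quantile normalization (0.50 and 0.46) and centring (0.54 and 0.62), and did not pass as deposited.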

How the data were processed

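Cells of nps1-13 (BYI-3) and WT (BY4743) were profiled on 4 one-colour Affymetrix Yeast Genome 2.0 arrays. The authors computed the deposited intensity values, linear signals per probe set, in GCOS with its defaults, scaling each array globally, but the deposited arrays do not share a median. Scanner files were not used, detection over background is not given in the sources used here, and the number of arrays limits the precision. Of 5558 probe sets, 5345 have 1 gene symbol, 0 several and 213 none in the platform annotation, updated through the RefSeq R64 gene table. Where a gene had several probe sets (2 genes), the brightest was used.

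Signals were quantile-normalized over all probe sets, since the shift between arrays differs with brightness, and log2 values of 5343 genes were fitted in R 4.3.3 with limma 3.58.1 (lmFit, eBayes with trend), with Benjamini-Hochberg adjustment over all genes. Alternatives were the deposited scale, median centring, a mean signal of at least 100 or 200, 32 added to the signal, probe sets averaged per gene, no trend, a block for the replicate number and each array left out once. The fit was tested on simulated data. Members and lists were chosen with earlier results of these data known. Every measured member is named, with array values for members changed 1.5-fold or more, the transcription factors, HMG1, HMG2, ERG1, ERG9, ERG11 and the paralog pairs, and for others where the text needs them. Up to 4 genes with the largest changes past the threshold are named from each other list. Sequences were not used here. Figures were drawn with matplotlib 3.10.9.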

Additional observations from a re-analysis of the deposited data

How the results depend on the processing

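The median of the sterol enzymes stayed below 0 under every alternative tried. No sterol gene was called higher on the deposited scale, where 9.41% of all genes were. Signals at least 100 or 200, 32 added to the signal and the mean of probe sets left all 39 sterol genes on the same side of the threshold. With a mean signal of at least 200, 0 other users of farnesyl diphosphate were lower, since SRT1 was left out as dim.

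As deposited, 503, 224 and 106 of all genes were higher (past the test, by 1.5-fold and by 2-fold) and 3435, 2041 and 889 were lower. Of the sterol genes 0 were higher, also 0 by 1.5-fold, 19 were lower by 1.5-fold and 11 by 2-fold, with a median of -0.57. Of the enzymes 0 were higher, 15 were lower by 1.5-fold and 9 by 2-fold, with a median of -0.87. The counts of higher genes were 0 in the mevalonate, isoprenoid and zymosterol-to-ergosterol steps, electron donors and heme-binding partners, transcription factors and steryl ester genes. They were also 0 in the Insig homologs, oxysterol-binding homologs, other users of isoprenoid diphosphates, degradation genes and oxygen regulators, and 1 each in uptake and transport. Lower were 2 electron donors and heme-binding partners, 1 transcription factor, 4 steryl ester genes, 1 oxysterol-binding homolog and 4 uptake genes. So were 4 other users of isoprenoid diphosphates, 8 degradation genes and 5 oxygen regulators. Signs turned for HMG1 (-0.088), ERG12 (-0.44), IDI1 (-0.14), ERG6 (-0.028), DAP1 (-0.072), ECM22 (-0.14), SUT1 (-0.00083), YEH2 (-0.52), NSG2 (-0.16) and DAN4 (-0.17).

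With arrays centred, 3 sterol genes, all enzymes, were 2-fold lower, and the medians were -0.098 for sterol genes and -0.39 for enzymes. Lower were 2 mevalonate genes, 0 isoprenoid genes, 1 transcription factor and 0 Insig homologs, and higher were 2 electron donors and heme-binding partners, 5 uptake genes and 7 transport genes. Signs turned for ERG10 (0.025), MVD1 (0.025), ERG20 (0.064) and NCP1 (0.18), and for 4 genes that passed under neither scaling, ERG28 (0.057), TGL1 (0.019), YEH2 (-0.049) and OSH7 (0.069). NSG1 minus NSG2 was -0.41, SUT1 minus SUT2 was 0.72 and UPC2 minus ECM22 was 0.30 with arrays centred and as deposited. These 2 scalings differ from each other by 1 constant per array, which cancels between paralogs. All genes higher and lower came to 42.7% and 34.6% with arrays centred and 9.41% and 64.3% as deposited.

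Without a trend the counts of higher genes were 0 of 2 isoprenoid genes, 0 of 2 Insig homologs and 5 of 9 uptake genes. With the trend these counts were 1, 1 and 3, and 36.4% of all genes were higher. Lists of 2 genes are too small to be compared with such a share. With the replicate number as a block, 0 isoprenoid genes were higher and MVD1 (adjusted p = 0.060) and IDI1 (0.061) were the 2 sterol genes to lose their calls. The deviations of same-numbered arrays correlated at -0.095. This does not tell if such arrays shared a day or a batch, which neither labels nor methods give.

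Leaving out 1 array, which leaves 1 array in a strain, gave medians of the enzymes from -0.50 to -0.45. Some calls among the isoprenoid, Insig, mevalonate, steryl ester and uptake genes changed with the array left out. The pair differences ran from 0.71 to 0.93 for ARE1 minus ARE2, 0.38 to 0.56 for HMG1 minus HMG2, 0.26 to 0.57 for SUT1 minus SUT2 and -0.68 to -0.37 for YEH1 minus YEH2. In each of these sets 35 or 36 of the 39 sterol genes stayed on their side of the threshold. The causes of these changes were not tested.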

Other observations

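Of 10 genes that use isoprenoid diphosphates for products other than sterols, 6 were higher (against 36.4% of all genes), 1 was lower (against 37.7% of all genes) and 3 did not pass, with a median log2 fold change of 0.33 (0.27 when centred). MOD5, which modifies tRNA with an isoprenoid group, had 857 and 829 in nps1-13, against 459.8 and 465 in WT (0.87, adjusted p = 1.4e-05 from limma). CDC43, a subunit of a protein prenyltransferase, and COX10, which makes heme O from farnesyl diphosphate, were at 0.67 and 0.65. SRT1, a cis-prenyltransferase gene, was at -0.70. As deposited, none of the 10 was called higher, where 9.41% of all genes were.

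The list of 12 genes for degradation of HMG-CoA reductase and squalene epoxidase held 4 higher genes (33.3%, against 36.4% of all genes) and 4 lower genes (33.3%, against 37.7% of all genes), with a median of 0.0017. UBC7, a ubiquitin-conjugating enzyme of the endoplasmic reticulum, and CUE1, which anchors it there, both fell (-0.58 and -0.48), and USA1, a scaffold of the Hrd1 ligase, was at -0.38. NPL4, a cofactor of the Cdc48 ATPase, was at 0.49 (0.60 when centred). None of the 12 reached 1.5-fold, a size at which 13.1% of all genes were higher and 13.7% lower. UBC7, at 1.49-fold lower, came close to it.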
